A study of Mus musculus with 14 samples.

Results

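Genes of multinucleated giant macrophages and of cell fusion were followed through ovary and uterus in aged mice. They are Dcstamp, Ocstamp, Acp5, Ctsk, Atp6v0d2, Gpnmb, Trem2, Spp1 and Cd5l, 9 of the 21853 genes with a deposited value. The list was chosen by the measured level of Dcstamp, which was lower in the treated ovaries, and the other 8 genes were set beside it as genes of fused, lipid-laden macrophages. The difference between treated and control ovaries had therefore been used in the choice, and it is described here without a test. The uteruses and the difference between the tissues had not been used.

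Giant cells form when mononuclear macrophages fuse. Osteoclasts, the bone-resorbing cells, and foreign body giant cells are the best known of them, and both need the membrane protein encoded by Dcstamp. In the aged mouse ovary, macrophages that have taken up much lipid and pigment gather in the stroma and fuse into large multinucleated cells.

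RNA sequencing was carried out on 14 libraries from 7 mice, and each mouse gave 1 ovary library and 1 uterus library. The OC group held 3 aged C57BL/6J females injected with saline, and the OT group held 4 such females injected with AMSC-CM, the conditioned medium of human amniotic membrane-derived mesenchymal stem cells pooled from 3 donors. Treatment started at 28 weeks of age and consisted of 6 intravenous injections of 1 µL per g body weight, given 4 days apart. Before treatment, mice of both groups also received 10 IU each of pregnant mare serum gonadotropin and human chorionic gonadotropin, 48 h apart, to synchronize their cycles.

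The values were FPKM, read fragments scaled to transcript length and library size, which allow levels to be compared between genes per length. The tissue labels were checked against marker genes. All 6 granulosa, all 6 luteal and all 5 oocyte markers were higher in the ovaries than in the uteruses, and all 5 uterine smooth muscle markers were lower. Of the 7 uterine epithelium and stroma markers, 3 were lower in the ovaries at the cutoffs given below and 4 did not pass. The ovary libraries were not alike in some of them. Hoxa10, a gene of the uterine stroma, ranged from 0.572 FPKM in OT1 to 53.4 FPKM in OC2. Hoxa11 ranged from 0.0707 to 14.7 FPKM and Prss28 from 0 to 6.03 FPKM. The ranges of the others were narrower: Epcam 19.0 to 29.3 FPKM, Krt8 22.5 to 41.6, Krt18 40.2 to 75.4 and Foxa2 1.36 to 2.44. The general macrophage markers were present in every group, with sums over 13 genes from 325 to 608 FPKM in the ovaries and from 413 to 1416 FPKM in the uteruses.

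Of the 9 genes, Acp5 alone passed the test between OT and OC uteruses, and Ctsk, Spp1 and Cd5l passed between the tissues. In the uteruses 7 genes were tested, and 1 of the 7, Acp5, rose at the cutoffs of the study while none fell. Those cutoffs are a log2 fold change of 1 or more in size with unadjusted p no higher than 0.05, and 2.23% of all 14151 genes tested rose and 0.664% fell at them. By limma, 0 of the 14151 (0%) had a Benjamini-Hochberg adjusted p under 0.05, and 1160 (8.2%) had an unadjusted p under 0.05. In a fit of all 14 libraries, 47 genes reached that adjusted p in the same contrast, with Acp5 among them at 0.0319 by limma. OT uteruses lay wholly above OC uteruses for 1 of the 7, Acp5, and for 6.46% of all genes. Between the tissues the same 7 genes were tested at a log2 difference of 1 or more in size and an adjusted p under 0.05. There 2 genes, Spp1 and Cd5l, were higher in the ovary, against 9.59% of all 14557 genes, 1 gene, Ctsk, was lower, against 10%, and 4 did not pass. All ovaries lay above all uteruses for Cd5l, against 13.5% of all genes, and below them for Ctsk, against 11.5%.

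In the ovaries 8 of the 9 genes passed the filter on low values, and OT and OC did not overlap for Dcstamp, which was lower, and Acp5, which was higher. Of all 14415 genes in the ovaries, 3.13% were lower and 2.78% higher without overlap, and nothing is read from these shares, since this contrast chose Dcstamp. The log2 differences of the remaining genes between OT and OC ovaries were -0.06 for Ctsk, -0.44 for Atp6v0d2, 0.16 for Gpnmb, 0.52 for Trem2 and 0.35 for Cd5l.

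Levels of the fusion genes themselves were low. Dcstamp (ENSMUSG00000022303.9, GRCm38 chromosome 15, 39745930 to 39760938, plus strand) encodes the dendritic cell-specific transmembrane protein required for osteoclast and giant cell fusion. Its level in the OC ovaries was 0.899, 1.05 and 0.968 FPKM. In the OT ovaries it was 0.0808, 0.443, 0 and 0.104 FPKM. All 4 OT ovaries lay below all 3 OC ovaries, with OT2 nearest to them. One fragment on the longest Dcstamp transcript was estimated to be worth 0.0636 to 0.0866 FPKM, which puts 12.2, 14.4 and 14 fragments behind the OC ovaries and 1.14, 6.97, 0 and 1.36 behind the OT ovaries. The log2 difference was -2.34 at a pseudocount of 0.1 FPKM, -0.78 at 1 FPKM and -3.57 at 0.01 FPKM, so its size rests on the pseudocount while its sign does not. In bulk tissue, fewer cells of a type and less RNA per cell cannot be told apart.

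Dcstamp was at 0 in all 3 OC uteruses and in the OT1 and OT3 uteruses. It was at 0.110 FPKM in the OT2 uterus and at 0.0880 FPKM in the OT4 uterus, an estimated 1.45 and 1.19 fragments. No housekeeping gene of the 8 checked was at 0 in any library. The mean over the 7 ovaries, 0.507 FPKM, passed the filter of 0.5 FPKM only through the OC group, and Dcstamp was below the filter in the uteruses.

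Ocstamp (chromosome 2, 165393760 to 165400405, minus strand) encodes the osteoclast stimulatory transmembrane protein, a partner of Dcstamp in fusion. It was at 0.237, 0.0957 and 0.0890 FPKM in the OC ovaries and at 0.0891, 0.198, 0 and 0.0485 FPKM in the OT ovaries. The groups overlapped, and the highest value, in OC1, stood for an estimated 5.88 fragments. In the uteruses Ocstamp was at 0 in 6 of 7 libraries and at 0.181 FPKM in OT1. It was below the filter in each comparison. With no filter on low values, the log2 difference between OT and OC uteruses was 0.37 (95% interval -0.57 to 1.32) and that between ovary and uterus was 0.80 ± 0.30 (SE, adjusted p = 0.0409 by limma), short of the fold cutoff, on at most 5.88 estimated fragments per library.

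**Figure D1:**
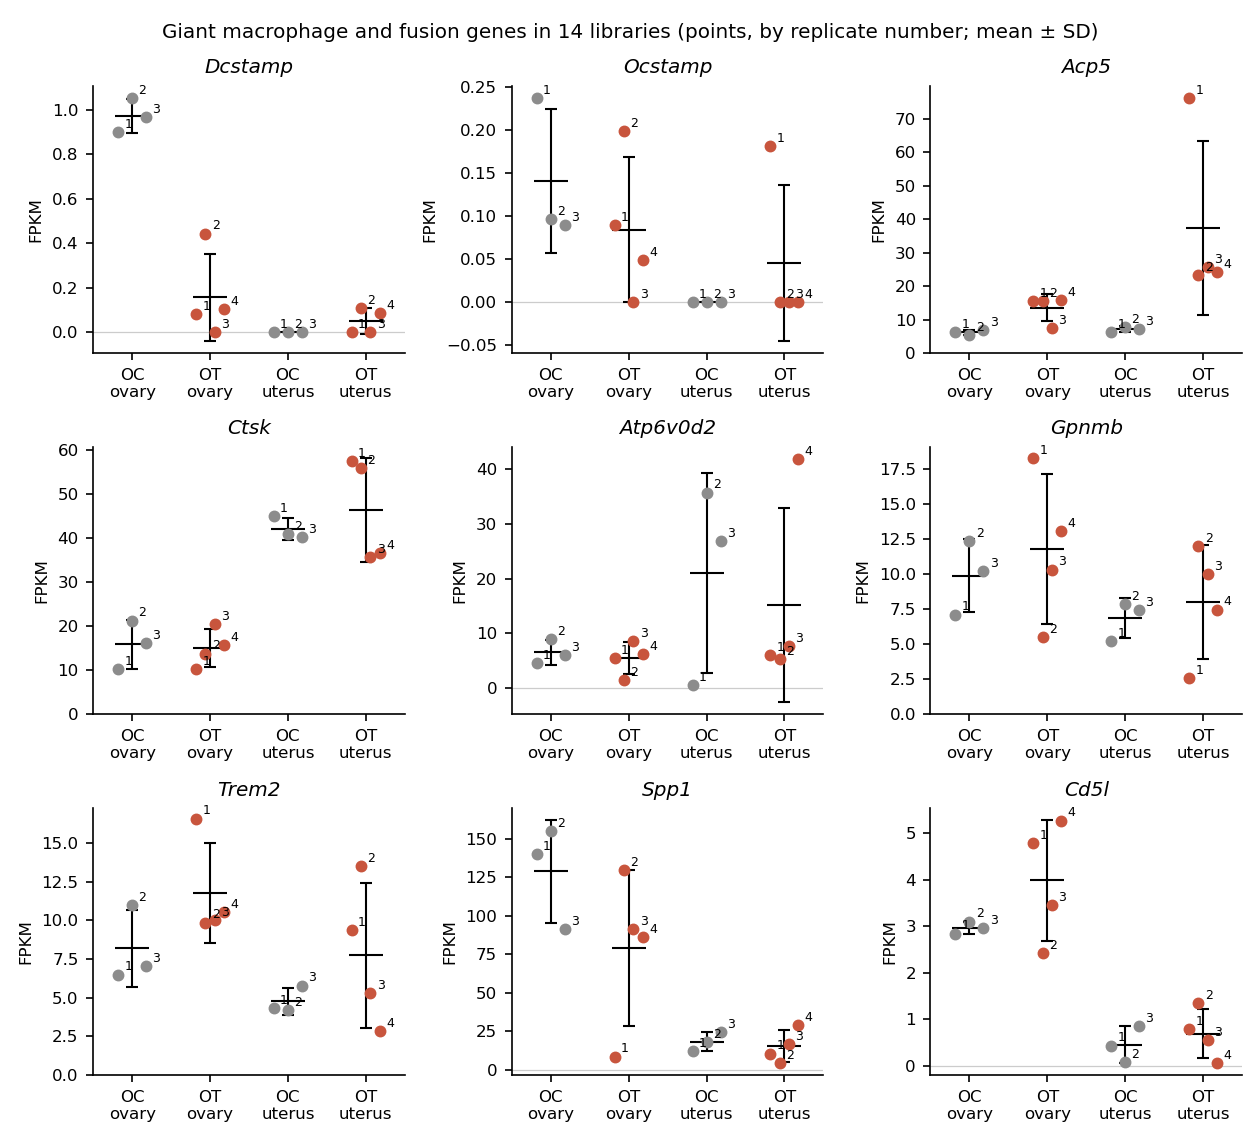
Level of each of the 9 genes in FPKM (vertical axes, each with its own scale) in the 4 groups; each point is 1 library with its replicate number, and bars give the mean and SD of 3 OC or 4 OT libraries (grey, OC; orange, OT). Dcstamp in the OC ovaries lies above every other group, Acp5 reaches 76.2 FPKM in the OT1 uterus, and Spp1 falls to 8.70 FPKM in the OT1 ovary.

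The secreted and vacuolar enzymes of the giant cell were much more abundant than the fusion genes. Acp5 (ENSMUSG00000001348.15, chromosome 9, 22126727 to 22135711, minus strand) encodes tartrate-resistant acid phosphatase, the classic histochemical marker of osteoclasts. Its level in the OC uteruses was 6.19, 7.85 and 7.22 FPKM. In the OT uteruses it was 76.2, 23.2, 25.8 and 24.2 FPKM. Every OT uterus lay above every OC uterus, and OT1 stood far above the other OT uteruses. Acp5 was 2.19 ± 0.40 higher on the log2 scale in the OT uteruses (SE, n = 3 and 4, unadjusted p = 0.000622 by limma, Benjamini-Hochberg adjusted p = 0.357), with a 95% interval of 1.26 to 3.11. This passed the cutoffs of the study but not the adjustment over all genes. Without OT1 the difference was 1.77 and the adjusted p 0.0111 by limma. The adjusted p ranged from 0.0111 to 0.966 over the settings tried.

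In the ovaries, too, the OT group was the higher one. The OC ovaries had 6.23, 5.39 and 6.82 FPKM and the OT ovaries 15.5, 15.4, 7.40 and 15.9 FPKM. The groups did not overlap, although OT3 lay close to the OC ovaries. The log2 difference in the ovaries was 1.07, described without a test. Between ovary and uterus the log2 difference of Acp5 was -0.76 ± 0.26 (SE, adjusted p = 0.0265 by limma), short of the fold cutoff, and it was -0.20 in the OC libraries alone.

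Acp5 was high where fat cell genes were high. The summed level of the 10 adipocyte markers was 86.0, 214 and 209 FPKM in the OC uteruses and 8820, 1018, 1587 and 788 FPKM in the OT uteruses. All 10 markers rose in the OT uteruses at the cutoffs of the study (median log2 difference 3.69), against 2.23% of all genes. Among them were Adipoq, which encodes adiponectin, with 3.65, and Lep, which encodes leptin, with 3.60. In the ovaries the sum was 167, 144 and 224 FPKM in the OC group and 1402, 1089, 171 and 286 FPKM in the OT group, and OT3, the OT ovary with the lowest Acp5, also had the lowest sum of its group. The 7 uteruses fell into 2 separate clusters on both measures, with 3 and 4 libraries, so no correlation is given for them. Over the 7 ovaries, log2 Acp5 and the mean log2 level of the adipocyte markers had Pearson's r = 0.87 (exact permutation p = 0.0222, adjusted p = 0.429 over 234 relations) and Spearman's rho = 0.79 (exact permutation p = 0.0480). The r was 0.94 without the 2 ovaries farthest from the median of the adipocyte marker mean and 0.78 on deviations from the group means. Other lists were also related to Acp5 in the ovaries. For the 15 genes of lipid-laden macrophages r was 0.89 (exact permutation p = 0.00635, adjusted p = 0.248) and 0.71 on deviations. For the 13 macrophage markers r was 0.77 (exact permutation p = 0.0837, adjusted p = 0.530) and 0.54 on deviations. With the mean log2 level of the adipocyte markers as a covariate, the Acp5 difference in the uterus was 0.42 (unadjusted p = 0.275 by limma, adjusted p = 0.816). It was no longer past the cutoffs. All 10 markers were higher in every OT uterus than in every OC uterus, so this covariate nearly stood for the group. The fit therefore cannot tell the adipocyte markers and the treatment apart.

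Other marker lists moved with Acp5 to different degrees. The 6 stratified epithelium markers also rose in the OT uteruses, with sums of 2.39 to 11.5 FPKM in the OC group and 43.4 to 770 FPKM in the OT group. The sums of the 5 smooth muscle markers were also higher without overlap, 3297 to 3684 FPKM in the OC group and 4192 to 6335 FPKM in the OT group. Those of the 7 uterine epithelium and stroma markers were lower without overlap, 500 to 528 FPKM against 305 to 457 FPKM. In neither list did a gene pass the cutoffs. The sums of the 13 macrophage markers were 413, 474 and 450 FPKM in the OC uteruses and 831, 1416, 508 and 488 FPKM in the OT uteruses. The highest macrophage sum was in OT2, where Acp5 was at 23.2 FPKM, against 24.2, 25.8 and 76.2 FPKM in the other OT uteruses. With the macrophage markers as a covariate the Acp5 difference was 2.05 (unadjusted p = 0.0096 by limma, adjusted p = 0.966). The part of macrophages, stratified epithelium, smooth muscle and uterine epithelium and stroma in the Acp5 level was not tested.

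**Figure D2:**
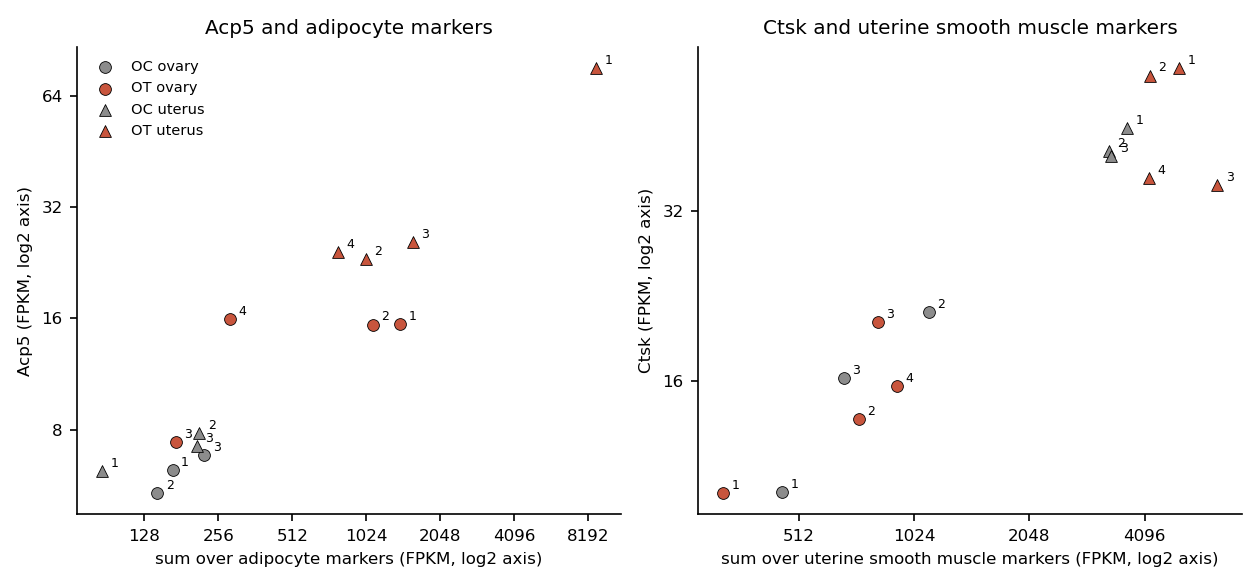
Left, Acp5 against the sum over 10 adipocyte markers; right, Ctsk against the sum over 5 uterine smooth muscle markers, all in FPKM on log2 axes, 1 point per library with its replicate number (circles, ovary; triangles, uterus; grey, OC; orange, OT). The OT uteruses lie at 23.2 to 76.2 FPKM of Acp5 and 788 to 8820 FPKM of the adipocyte markers, and the ovaries OC1 and OT1 are lowest in both Ctsk and the muscle markers.

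Ctsk (chromosome 3, 95499256 to 95509362, plus strand) encodes cathepsin K, the collagen-degrading protease of osteoclasts. Its level was 10.2, 21.2 and 16.2 FPKM in the OC ovaries and 10.1, 13.7, 20.4 and 15.7 FPKM in the OT ovaries. In the uteruses it was 44.9, 40.9 and 40.2 FPKM in the OC group and 57.5, 55.8, 35.6 and 36.6 FPKM in the OT group. All 7 uteruses lay above all 7 ovaries, while OC and OT overlapped in both tissues. Ctsk was 1.55 lower in the ovary on the log2 scale (log2 difference -1.55 ± 0.19 SE, n = 7 and 7, adjusted p = 1.51e-05 by limma). Between OT and OC uteruses the difference was 0.11 with a 95% interval of -0.36 to 0.58, which leaves room for less than 1 log2 unit in either direction.

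Within the ovaries, Ctsk was set against markers of the uterine type. Its log2 level and the mean log2 level of 7 uterine epithelium and stroma markers had Pearson's r = 0.93 over 7 ovaries (exact permutation p = 0.00198, adjusted p = 0.116 over 234 relations) and Spearman's rho = 0.93 (exact permutation p = 0.00675). The r was 0.99 without the 2 ovaries farthest from the median of that marker mean and 0.95 on deviations from the group means. For the smooth muscle markers r was 0.90 (exact permutation p = 0.0131, adjusted p = 0.287) and rho was 0.82 (exact permutation p = 0.0341). Without the 2 ovaries farthest from the median of the smooth muscle marker mean, r was 0.65. Over the uteruses these relations differed in sign. There r was -0.79 for the uterine epithelium and stroma markers (exact permutation p = 0.044, adjusted p = 0.435) and -0.07 for the smooth muscle markers. The part of uterine or connective tissue in the Ctsk level of the ovary libraries was not tested.

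Atp6v0d2 (chromosome 4, 19876841 to 19922605, minus strand) encodes a subunit of the vacuolar proton pump that is enriched in osteoclasts and takes part in their fusion. On the log2 scale its uterine level had the widest residual scatter of the 7 genes tested (residual SD 2.33). It was at 0.514, 35.7 and 26.9 FPKM in the OC group and at 6.02, 5.34, 7.72 and 41.8 FPKM in the OT group. In each group of uteruses, single libraries stood far from the rest: OC1 was low and OT4 was high. The difference between OT and OC uteruses was 0.28 with a 95% interval of -2.96 to 3.52, and it changed sign to -1.60 without OC1 and to -0.40 without OT4. The ovaries were closer together, with 4.49, 9.001 and 6.04 FPKM in the OC group and 5.44, 1.47, 8.52 and 6.23 FPKM in the OT group. Between ovary and uterus the log2 difference was -0.77 ± 0.83 (SE, adjusted p = 0.461 by limma). Without the OC1 uterus it was -1.71 (adjusted p = 0.0156 by limma), past the cutoffs, so this call rests on 1 library.

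The surface receptors of lipid-laden macrophages did not pass the cutoffs in either comparison. Gpnmb (chromosome 6, 49036546 to 49070929, plus strand) encodes a membrane glycoprotein of lysosome-rich macrophages and osteoclasts. It was at 7.09, 12.3 and 10.2 FPKM in the OC ovaries and at 18.3, 5.51, 10.3 and 13.0 FPKM in the OT ovaries. In the uteruses it was at 5.21, 7.86 and 7.42 FPKM in the OC group and at 2.56, 12.0, 9.95 and 7.45 FPKM in the OT group. In both tissues the OC values lay inside the range of the OT values. The difference between OT and OC uteruses was 0.04 (95% interval -1.08 to 1.16), and that between ovary and uterus was 0.57 ± 0.34 (SE, adjusted p = 0.169 by limma).

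Trem2 (chromosome 17, 48346401 to 48354147, plus strand) encodes a lipid-sensing receptor that signals through the adaptor Tyrobp. Its level was 6.50, 11.0 and 7.04 FPKM in the OC ovaries and 16.6, 9.87, 10.0 and 10.6 FPKM in the OT ovaries. In the uteruses it was 4.35, 4.21 and 5.79 FPKM in the OC group and 9.40, 13.5, 5.29 and 2.83 FPKM in the OT group. OC and OT overlapped in both tissues, with OT1 highest among the ovaries and OT2 highest among the uteruses. The difference between OT and OC uteruses was 0.48 (95% interval -0.63 to 1.58). Between ovary and uterus the log2 difference of Trem2 was 0.76 ± 0.29 (SE, adjusted p = 0.0409 by limma), short of the fold cutoff. With the macrophage markers as a covariate this became 1.43 (adjusted p = 0.00435 by limma), past it.

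The genes of both secreted proteins were higher in the ovary. Spp1 (chromosome 5, 104435118 to 104441050, plus strand) encodes osteopontin, a secreted matrix protein made by macrophages and by many epithelial cells. It was at 140, 155 and 91.4 FPKM in the OC ovaries and at 8.70, 129, 91.4 and 86.2 FPKM in the OT ovaries. The OT1 ovary was about as low as the uteruses, which had 12.2, 18.1 and 24.7 FPKM in the OC group and 10.7, 4.61, 17.0 and 29.1 FPKM in the OT group. Apart from OT1, every ovary lay above every uterus. Spp1 was 2.47 ± 0.56 higher in the ovary on the log2 scale (SE, adjusted p = 0.00225 by limma). With the macrophage markers as a covariate it was 2.10 higher, and the adjusted p by limma was 0.0582. The difference between OT and OC ovaries was -1.20 with OT1 and -0.32 without it, described without a test. The difference between OT and OC uteruses was -0.49 (95% interval -1.79 to 0.81).

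Cd5l (chromosome 3, 87357881 to 87371073, plus strand) encodes a secreted apoptosis inhibitor of tissue macrophages. It was at 2.84, 3.10 and 2.96 FPKM in the OC ovaries and at 4.80, 2.42, 3.45 and 5.27 FPKM in the OT ovaries. The uteruses had 0.436, 0.0751 and 0.861 FPKM in the OC group and 0.786, 1.34, 0.559 and 0.0673 FPKM in the OT group. All 7 ovaries lay above all 7 uteruses. Cd5l was 2.73 ± 0.47 higher in the ovary on the log2 scale (SE, adjusted p = 0.000274 by limma), and 2.77 higher in the OC libraries alone. The difference was 1.53 at a pseudocount of 1 FPKM and 3.13 at 0.01 FPKM, past the cutoffs at each, and the OC2 and OT4 uteruses held an estimated 0.952 and 0.930 fragments. The difference between OT and OC uteruses was 0.45 (95% interval -1.60 to 2.498).

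**Figure D3:**
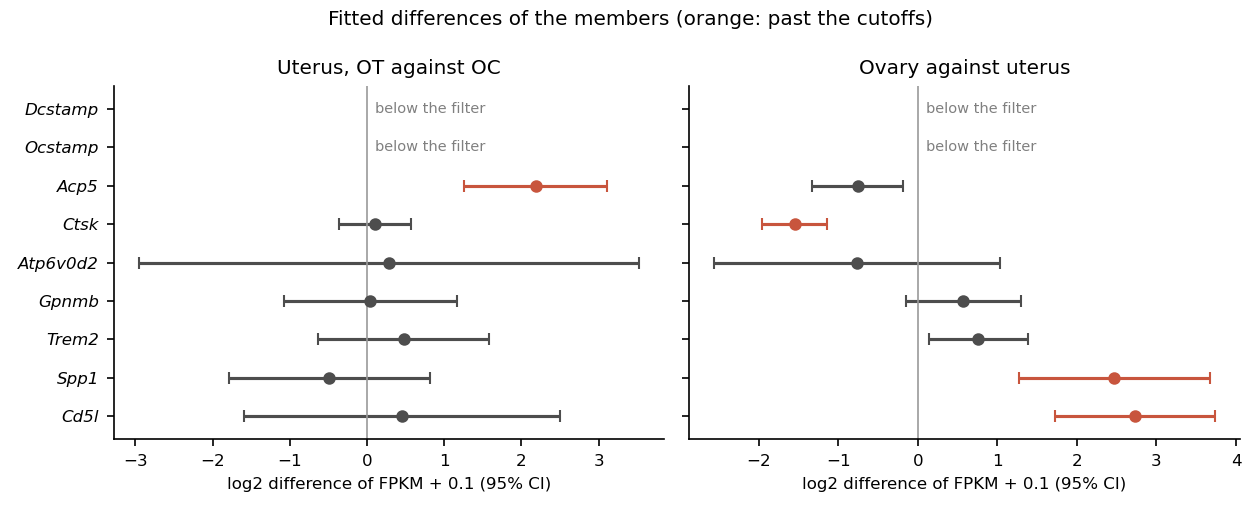
Fitted differences on the scale of log2(FPKM + 0.1) with 95% intervals, for OT against OC uteruses (left) and ovary against uterus (right); orange marks genes past the cutoffs of each comparison, and Dcstamp and Ocstamp were below the filter. On the left Acp5 alone is past the cutoffs, at 2.19; on the right Ctsk is at -1.55, Spp1 at 2.47 and Cd5l at 2.73.

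The order of the levels differed between the tissues. In the ovaries the medians fell from Spp1 (91.4 FPKM) through Ctsk (15.7), Gpnmb (10.3), Trem2 (10.0), Acp5 (7.40), Atp6v0d2 (6.04) and Cd5l (3.10) to Dcstamp (0.443) and Ocstamp (0.0891). Only Cd5l and Dcstamp, among neighbours in that order, had ranges that did not overlap. In the uteruses Ctsk came first (40.9 FPKM), followed by Acp5 (23.2), Spp1 (17.0), Atp6v0d2 (7.72), Gpnmb (7.45), Trem2 (5.29) and Cd5l (0.559), with Dcstamp and Ocstamp at a median of 0. There only Trem2 and Cd5l, among neighbours, did not overlap. Acp5 was above Spp1 in 3 uteruses, all of the OT group, and below it in every OC uterus.

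No pair of the 9 genes varied together from mouse to mouse at an adjusted p under 0.05. Over the 36 pairs in the ovaries, the median of Pearson's r was -0.06, with 7 pairs above 0.5 and 12 below -0.5. Over the 36 pairs in the uteruses it was 0.03, with 6 pairs above 0.5 and 4 below -0.5. Of these 72 relations, 5 had an exact permutation p under 0.05, and the smallest adjusted p was 0.143. Trem2 and Cd5l in the uteruses had the smallest p, with r = 0.85 (exact permutation p = 0.00198) and rho = 0.96 (exact permutation p = 0.00278), and r = 0.66 without the 2 uteruses farthest from the median of Trem2. In the ovaries Gpnmb and Cd5l came first, with r = 0.83 (exact permutation p = 0.0115, adjusted p = 0.414) and rho = 0.93 (exact permutation p = 0.00675), and r = 0.65 without the 2 farthest. In the ovaries the pairs with Dcstamp carry the difference between OT and OC that chose the list, and none of the 5 relations includes Dcstamp. Its r with Acp5 there was -0.53, and 0.66 on deviations from the group means. The pairs that include Dcstamp or Ocstamp in the uterus rest on 1 or 2 libraries above 0. With 1 such library, the pairs with Ocstamp there could reach no exact permutation p under 0.286.

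**Figure D4:**
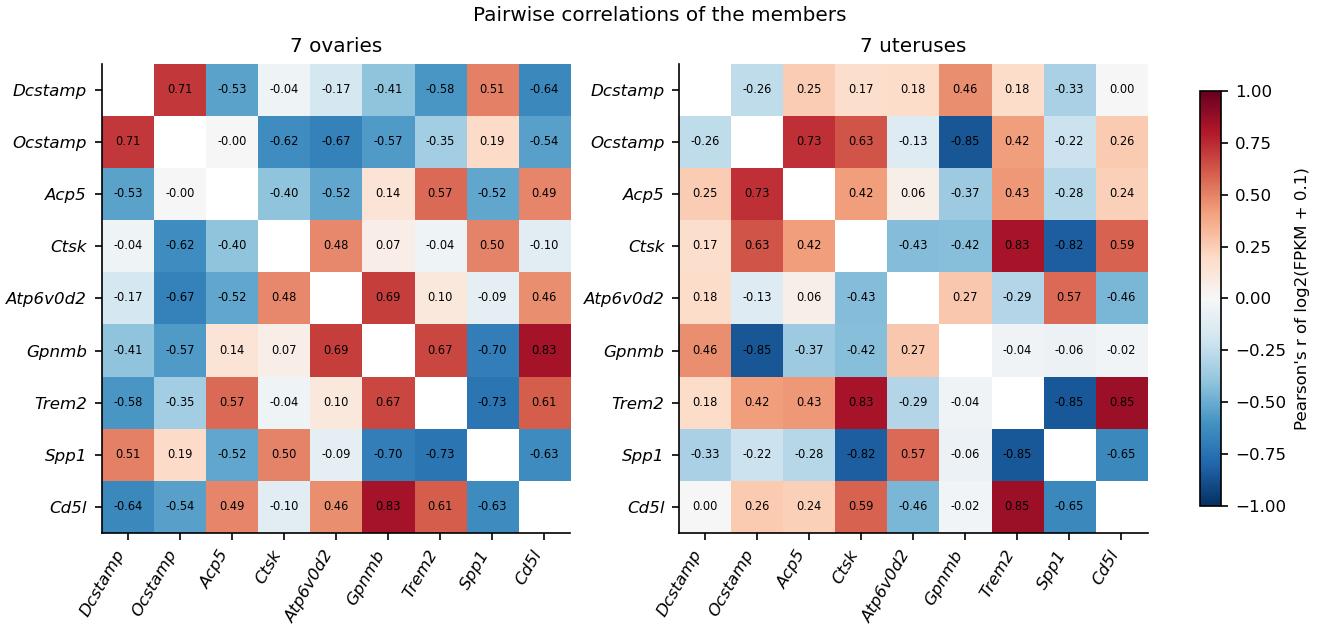
Pearson's r of log2(FPKM + 0.1) for each pair of the 9 genes over 7 ovaries (left) and 7 uteruses (right), with the value written in each cell and colour from blue (-1) to red (1). The cells are mixed in sign, from -0.73 to 0.83 in the ovaries and from -0.85 to 0.85 in the uteruses.

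The ovary and the uterus of a mouse were also compared for each gene. Over 7 mice, Acp5 had r = 0.79 (exact permutation p = 0.0496, adjusted p = 0.321 over 9 relations) and rho = 0.71 (exact permutation p = 0.0881). The r was 0.69 without the 2 mice farthest from the median and 0.22 on deviations from the group means. Ctsk had r = -0.70 (exact permutation p = 0.0909) and rho = -0.71 (exact permutation p = 0.0881). Atp6v0d2 had r = 0.40 (exact permutation p = 0.323) and rho = 0.79 (exact permutation p = 0.0480). The smallest adjusted p over the 9 genes was 0.321 for r and 0.264 for rho.

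Other genes of fusion and of the giant cell programme were counted in lists. Of 13 fusion partners, which include the tetraspanins Cd9 and Cd81, the receptor pair Cd47 and Sirpa and the hyaluronan receptor Cd44, none passed the cutoffs in the uterus (median log2 difference 0.15, against 0.01 over all genes). Between the tissues, Adam8, a membrane protease of osteoclasts, was 2.35 higher in the ovary, and Ccr2, the receptor for the chemokine Ccl2, was 1.57 lower there (log2 difference -1.57). Adam8 was at 11.0 to 19.3 FPKM in the ovaries and at 1.81 to 5.91 FPKM in the uteruses, without overlap.

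Of 18 genes of the osteoclast programme, 14 were tested in the uterus and none passed (median 0.14). Between the tissues 5 of 14 were lower in the ovary, against 10% of all genes, and none was higher, against 9.59%. The median was -0.91, against 0.00 over all genes. The 5 were the carbonic anhydrase gene Car2 (-1.72), Tnfrsf11a, which encodes the receptor RANK (-1.61), Prdm1 (-1.32), Mitf (-1.29) and Nfatc1 (-1.22). Mitf regulates Acp5 and Ctsk with its relatives, and Nfatc1 is the master transcription factor of osteoclasts. Calcr, the calcitonin receptor gene that marks mature osteoclasts, was listed at 0 in all 14 libraries. Tnfsf11, which encodes the RANK ligand, was at 0.441 FPKM or less in every library, and Oscar, an osteoclast receptor gene, at 0.274 FPKM or less.

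Of 18 proton pump and lysosome genes none passed in the uterus (median 0.02), and Ctsl alone passed between the tissues, 1.92 higher in the ovary. Of 15 genes of lipid-laden macrophages, 3 rose in the OT uteruses, against 2.23% of all genes. They were Fabp4, a fatty acid carrier, with 3.98, Lpl, the lipoprotein lipase gene, with 3.48, and Cd36, a fatty acid receptor, with 2.28. Adipocytes also express these 3 genes strongly. The adipocyte and the stratified epithelium markers rose in the same OT uteruses, and the cell type behind the rise of the 3 genes was not tested. Between the tissues Soat1, which esterifies cholesterol, was 3.32 higher in the ovary, Hmox1, a heme-degrading enzyme gene, 1.61 and Fabp5 1.15, while Cd36 was 1.06 lower (log2 difference -1.06). Steroid-producing ovarian cells express Soat1 as well.

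Of 13 macrophage markers 1 rose in the OT uteruses, against 2.23% of all genes. It was Cd163, a scavenger receptor gene, with 1.39, although its groups overlapped because OT4 was at 1.81 FPKM. The median of the list was 0.68 in the uterus and 0.43 in the ovary. Between the tissues 3 of 13 were lower in the ovary (Cd14 -1.96, Itgam -1.12 and Mrc1 -1.03), against 10% of all genes, and none was higher, against 9.59%. Spp1 and Cd5l were thus higher in the ovary while no general macrophage marker passed in that direction. Of 6 genes of other leukocytes, Cd79a, a B cell gene, rose in the OT uteruses with 1.64, and Ptprc was lower in the ovary with -1.28.

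Short promoter stretches are shown for the 3 genes in which a motif of a factor of this programme was found. RefSeq promoters of GRCm38.p6 were at hand for 6 of the 9 genes (Acp5, Ctsk, Gpnmb, Trem2, Spp1 and Cd5l), and the 250 bases before each start were searched on both strands. Capitals mark the motif, and coordinates are those of the stretch.
Acp5, chr9:22130663-22130708, minus strand: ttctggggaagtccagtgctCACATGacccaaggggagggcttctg
Spp1, chr5:104434978-104435025, plus strand: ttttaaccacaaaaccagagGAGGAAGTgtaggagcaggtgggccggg
Trem2, chr17:48346372-48346400, plus strand: ctcacgcccttctccctcctTGAATCAca
The Acp5 stretch holds the E-box CATGTG of the Mitf family on its reverse strand, 90 bases before 1 of 3 starts of the gene. That motif was found in 12.3% of 32851 promoters. The Spp1 stretch holds GAGGAAGT, a motif of PU.1, 113 bases before a start, which was found in 2.44% of promoters. The Trem2 stretch holds the AP-1 motif TGANTCA, 9 bases before a start, which was found in 6.75% of promoters. The related E-box CACGTG, found in 6.02% of promoters, was in none of the windows of the 6 genes. A match describes the letters only, and no binding was measured.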

How the data were processed

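RNA was measured in 14 libraries, from ovary and uterus of 3 OC and 4 OT mice, grouped by their labels. The authors trimmed the reads, aligned them to mm10 (STAR 2.5), quantified them (Cufflinks 2.2.1) and deposited gene-level FPKM. All 21853 identifiers matched GENCODE M21. Reads were not used here, so depth is unknown beyond the estimated value of 1 fragment, read from the lowest FPKM of 91 to 135 genes per library. FPKM were not scaled further.

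Genes averaging 0.5 FPKM or more over the libraries of a fit were tested with limma 3.58.1 in R 4.3.3 on log2(FPKM + 0.1), which understates changes of low genes. The uterus fit used 7 libraries, and the tissue fit 14 libraries with 4 group means. Benjamini-Hochberg adjustment ran over all tested genes. On simulated data, 96.0% of 200 genes changed by a log2 of 2 were recovered in the uterus fit and 95.0% in the tissue fit. Recovery was counted at the cutoffs of each fit, with unadjusted p in the uterus. The simulated scatter was normal and independent between libraries, without the outlying libraries seen here. Correlations used two-sided exact permutation of 7 libraries.

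Members, gene lists and tests were chosen with earlier results of these data known. All members are named, with up to 4 called genes of each list and uterus or tissue fit. Hoxa10 and the other uterine epithelium and stroma markers, Adipoq, Lep, Nfatc1, Calcr, Tnfsf11, Oscar and the listed partners that did not pass were named after their values were seen. Ovary and uterus libraries with the same label come from the same mouse, and their deviations correlated with a mean r of 0.141 (0.074 to 0.254 over 7 mice). Between different mice of 1 group the mean r was -0.054 (-0.235 to 0.248), so the ranges overlapped. OC and OT mice with the same number are different mice.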

Additional observations from a re-analysis of the deposited data

Results flagged for a closer look

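In groups of 4 libraries, the highest or lowest value was compared with the rest. Of 18 such groups, 5 held a library far from the other 3. Chance gives about 1 in 20 where values are normally distributed, which raw FPKM need not be. Acp5 was at 76.2 FPKM in the OT1 uterus, above 23.2 to 25.8 FPKM in the other OT uteruses, and the adipocyte marker sum was also highest there. Acp5 was at 7.40 FPKM in the OT3 ovary, below 15.4 to 15.9 FPKM in the other OT ovaries, and the adipocyte marker sum was lowest there. Atp6v0d2 was at 41.8 FPKM in the OT4 uterus, against 5.34 to 7.72 FPKM in the others. Trem2 was at 16.6 FPKM in the OT1 ovary, against 9.87 to 10.6 FPKM. Ocstamp was at 0.181 FPKM in the OT1 uterus and at 0 in the others, so its flag follows from the values at 0.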

How the results depend on the processing

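Of 299 values of tested results under other settings, 278 kept their direction and side of the cutoffs. The count of genes past the cutoffs in the uterus was 1 under each setting except the adipocyte covariate, where it was 0. It stayed 1 without each library in turn. In a replicate block by number, from which OT4 was dropped, it was 1 and Acp5 was at 2.32, and with the mouse as a block no call between the tissues changed, although OC and OT mice share only a number. Between the tissues the count was 3 to 4. Directions turned for small differences, and the cause was not tested. In the uterus Atp6v0d2 was at -0.027 with a pseudocount of 1 FPKM, -1.16 with the adipocyte covariate, and -0.40 in the replicate block, and ranged from -1.60 to 1.33 with 1 library left out. Ctsk was at -0.26 with the macrophage and -0.15 with the adipocyte covariate and ranged from -0.0070 (without OT1) to 0.22 with 1 library left out. Gpnmb was at -0.053 with the macrophage covariate, at -0.14, -0.22 and -0.13 without OC1, OT2 and OT3, and at up to 0.51 with 1 library left out. Trem2 was at -0.51 and -0.057 with the macrophage and adipocyte covariates. With the macrophage covariate Spp1 was at 0.66 and Cd5l at -0.58, and Cd5l ranged from -0.23 (without OC2) to 1.075 with 1 library left out. Spp1 in the ovary was at 0.0039 with the adipocyte covariate. Dcstamp in the ovary gave no value with a filter of 1 FPKM or without any 1 OC ovary, and Cd5l in the uterus none with that filter or without OT2.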

Other observations

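The genes whose levels followed Dcstamp most closely over the 7 ovaries, among 14415 genes, were Pcdhb4, Odr4, B3galnt2, Ackr4 and Yipf5, with Pearson's r of 0.97, 0.97, 0.96, 0.96 and 0.95. Their own ranges were narrow, such as 16.0 to 18.2 FPKM for Odr4. For Gpnmb they were Cd209a, Hs2st1, Slc18b1, Ecm2 and Sh3bp4, with r from 0.96 to 0.97. The same was done in the uteruses for Atp6v0d2 and Acp5, chosen after their values were seen. For Acp5 no genes are given, since its OC and OT uteruses formed separate clusters. Atp6v0d2 was followed by Atp13a4, Meltf, C130074G19Rik, Sphk1 and Tmem62, with r from 0.98 to 0.99. These are descriptions over 7 libraries that share their composition, with no p, and each is the highest of all genes compared.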
